A study of Danio rerio with 10 samples.

Results

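The 150 genes described here held the most reads in control blastulae among genes that the 3.3 hpf table listed and the 96 hpf table did not. Whole zebrafish of the AB line were pooled for RNA at 3.3 hours post fertilization (hpf). There were 3 libraries of embryos labelled with the combustion product benzo[a]pyrene (BaP) at 50 µg/L. There were also 3 libraries of control embryos, whose label gives 0.1 mL/L without saying of what. Whether parents or embryos were exposed, and for how long, is not given here. At 96 hpf there were 2 BaP and 2 control libraries of larvae, which served here to say what was listed at that age. The Ensembl gene table held 14236 genes at 3.3 hpf, of which 1436 had no entry among the 18910 genes at 96 hpf. These 1436 were ranked by mean CPM (reads scaled to a fixed total per library) in the 3 controls and the first 150 were taken, after leaving out cth1, bmp15, gdf9, zar1, buc, dazl, h1m and tdrd7 (vasa, also to be left out, was listed at both ages). The genes were thus chosen by their control CPM and by their absence from a list, so their high levels at 3.3 hpf and their missing entries at 96 hpf are a description and were not tested. The cutoff fell between zp3c and CU694951.2, at 39.9 and 38.8 CPM in controls as deposited, and wu:fi38e01 and NOBOX, at 38.7 and 37.9 CPM. Every gene in the 96 hpf table was above 1 CPM in at least 2 libraries, so a missing entry speaks of that list and is not a measured 0.

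A zebrafish blastula divides on RNA and protein that the mother placed in the egg during oogenesis. Around the time of sampling the embryo starts to transcribe its own genome, and much of the maternal RNA is then deadenylated and destroyed. Egg RNA is known for a set of genes that adult somatic tissues use little, among them oocyte forms of cell cycle regulators, RNA-binding proteins that keep stored messages silent, components of the germ plasm that specify the germ line, and proteins of the egg coat. By 96 hpf the animal is a swimming larva. In RNA from pooled whole animals, fewer cells with a transcript and less of it per cell cannot be told apart.

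Judged from the step that a single read adds, listed genes held 20.6 to 22.2 M reads per BaP library at 3.3 hpf. Control libraries of that age held 17.4 to 18.3 M reads. The mean control level at the cutoff, 38.8 CPM, would equal about 675 reads at the depth of the shallowest library. The gene there, CU694951.2, was itself uneven, at 101, 1.18 and 12.2 scaled CPM in control replicates 1, 2 and 3. Of 35 names on a list of larval tissue genes only 2 were listed at 3.3 hpf, and their summed level was 2.27 to 5.54 CPM in BaP and 1.42 to 2.85 CPM in control libraries. The summed level of the 29 listed early zygotic genes was 370, 1880 and 345 CPM in BaP replicates 1, 2 and 3, against 866, 300 and 380 CPM in control replicates 1, 2 and 3. BaP replicate 2 and control replicate 1 thus had the highest sums of that list. Its genes wnt8a, wnt11, bmp2b and ndr1 were also on the list of maternal axis determinants used below. The sum may therefore hold maternal RNA as well. Values below are CPM after trimmed-mean scaling, without correction for gene length, so levels are compared between libraries and not between genes.

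Genes without a proper name were common in the set. Of the 150, 73 (48.7%) carried a clone-type name, against 389 of 5735 genes (6.78%) that were listed at both ages and lay in the same range of control CPM. A current reference gene was found for 118 of the 150, of which 117 were protein coding and 1 was a long noncoding RNA. Through these matches several clone names became readable. The gene listed as zgc:158856 is slbp2, zgc:162969 is larp6b, si:dkey-208k4.2 is 42sp43, zgc:55413 and zgc:77118 are ppt2a.3 and ppt2a.4, and si:dkeyp-50f7.2, si:ch211-223m11.2 and si:ch211-14a17.7 are the egg coat genes zpax1, zpax2 and zp3f.1. By name, 71 members could be placed in 6 role groups, and 79 were left without one.

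The homeobox gene nanog, an activator of the zygotic genome in zebrafish, took the most reads of the set. It stood at 1472, 1763 and 1619 CPM in BaP embryos and 1439, 1495 and 1325 CPM in controls. The groups overlapped, with BaP replicates 2 and 3 above every control. The vertnin gene vrtn was the steadiest of the 150, at 234, 211 and 227 CPM in BaP embryos and 202, 222 and 220 CPM in controls, a coefficient of variation (SD over mean) of 0.0515 over the 6 libraries. Both nanog and vrtn thus varied little between libraries. KPNA7, an egg form of importin alpha that carries proteins into the nucleus, averaged 274 ± 51.3 CPM in BaP embryos and 284 ± 79.3 CPM in controls (SD, n = 3 each). The histone H3 methyltransferase gene suv39h1a averaged 45.5 ± 10.7 and 50.6 ± 6.5 CPM in BaP and control embryos (SD, n = 3 each).

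The 9 genes of the cell cycle and DNA replication were led in reads by the germ line cyclin gene ccna1, at 1495, 1044 and 1242 CPM in BaP embryos and 1217, 1358 and 1246 CPM in controls. CCNO, another cyclin gene, stood at 577, 428 and 480 CPM in BaP embryos and 516, 561 and 548 CPM in controls. The kinase gene wee2, an oocyte inhibitor of Cdk1, stood at 523, 406 and 437 CPM in BaP embryos and 395, 447 and 419 CPM in controls. All were highest in BaP replicate 1 and the groups overlapped, while the lowest library was BaP replicate 2 for both cyclins and control replicate 1 for wee2. The gene tatdn2, outside the named roles, was also among the 10 named genes with the most reads, at 596, 497 and 492 CPM in BaP embryos and 503, 469 and 426 CPM in controls. FBXO43, which encodes the inhibitor Emi2 that holds the mature egg in meiotic arrest, varied more. It stood at 359, 256 and 267 CPM in BaP embryos and 158, 427 and 295 CPM in controls, so that both its lowest and its highest library were controls.

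RNA storage and RNA binding was the largest named group, with 18 members. The stored messenger ribonucleoprotein gene lsm14b stood at 552, 422 and 481 CPM in BaP embryos and 523, 505 and 501 CPM in controls. The deadenylase adaptor gene btg4, which in mouse eggs promotes the clearance of maternal RNA, stood at 255, 220 and 226 CPM in BaP embryos and 288, 352 and 269 CPM in controls. All 3 BaP libraries lay below the 3 controls. The same held for PATL2, an oocyte repressor of translation, at 142, 135 and 148.2 CPM in BaP embryos against 174, 195 and 168 CPM in controls. The histone message binding gene slbp2 (zgc:158856) spread more, at 294, 156 and 249 CPM in BaP embryos and 160, 280 and 235 CPM in controls. Genes whose Xenopus relatives hold 5S ribosomal RNA in oocytes were steadier. The gene 42sp43 averaged 147 ± 9.43 CPM in BaP embryos and 151 ± 9.96 CPM in controls, and gtf3ab, the gene of transcription factor IIIA, 271 ± 36.6 and 255 ± 9.39 CPM in BaP and control embryos (SD, n = 3 each).

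The 3 members named for an RNA-binding motif ran in control mean from 54.5 CPM (rbm46) to 113 CPM (RBM33), with RBM44 at 94.2 CPM between them. The steadiest was rbm46, with a coefficient of variation of 0.0612, and RBM44 had 0.257.

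Germ plasm and small RNA genes numbered 12. The tudor domain gene tdrd6, whose product organises germ plasm in zebrafish, stood at 287, 156 and 222 CPM in BaP embryos and 207, 243 and 230 CPM in controls. A second entry of that name in capitals, TDRD6, stood at 199, 111 and 122 CPM in BaP embryos and 138, 126 and 175 CPM in controls, and reads could be split between the 2 entries. The third tudor gene of that name family, tdrd5, was highest in control replicate 1, at 53.1, 31.3 and 42.0 CPM in BaP embryos and 94.8, 54.4 and 39.4 CPM in controls. A further 3 genes with RNA in the germ plasm or the first germ cells shared a peak in control replicate 2. There ca15b, a carbonic anhydrase gene, reached 299 CPM against 124.8, 121 and 161 CPM in BaP embryos and 172 and 154 CPM in the other controls. In the same library dnd, which protects germ cell messages, reached 149.002 CPM, against 78.5, 76.4 and 91.8 CPM in BaP embryos and 66.1 and 81.6 CPM in the other controls. The translational regulator gene nanos3 reached 126 CPM there, against 42.9, 67.8 and 95.5 CPM in BaP embryos and 63.8 and 55.6 CPM in the other controls. Other germ line genes were even across libraries, such as asz1 with a coefficient of variation of 0.0777 and gra, also at 0.0777.

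**Figure D1:**
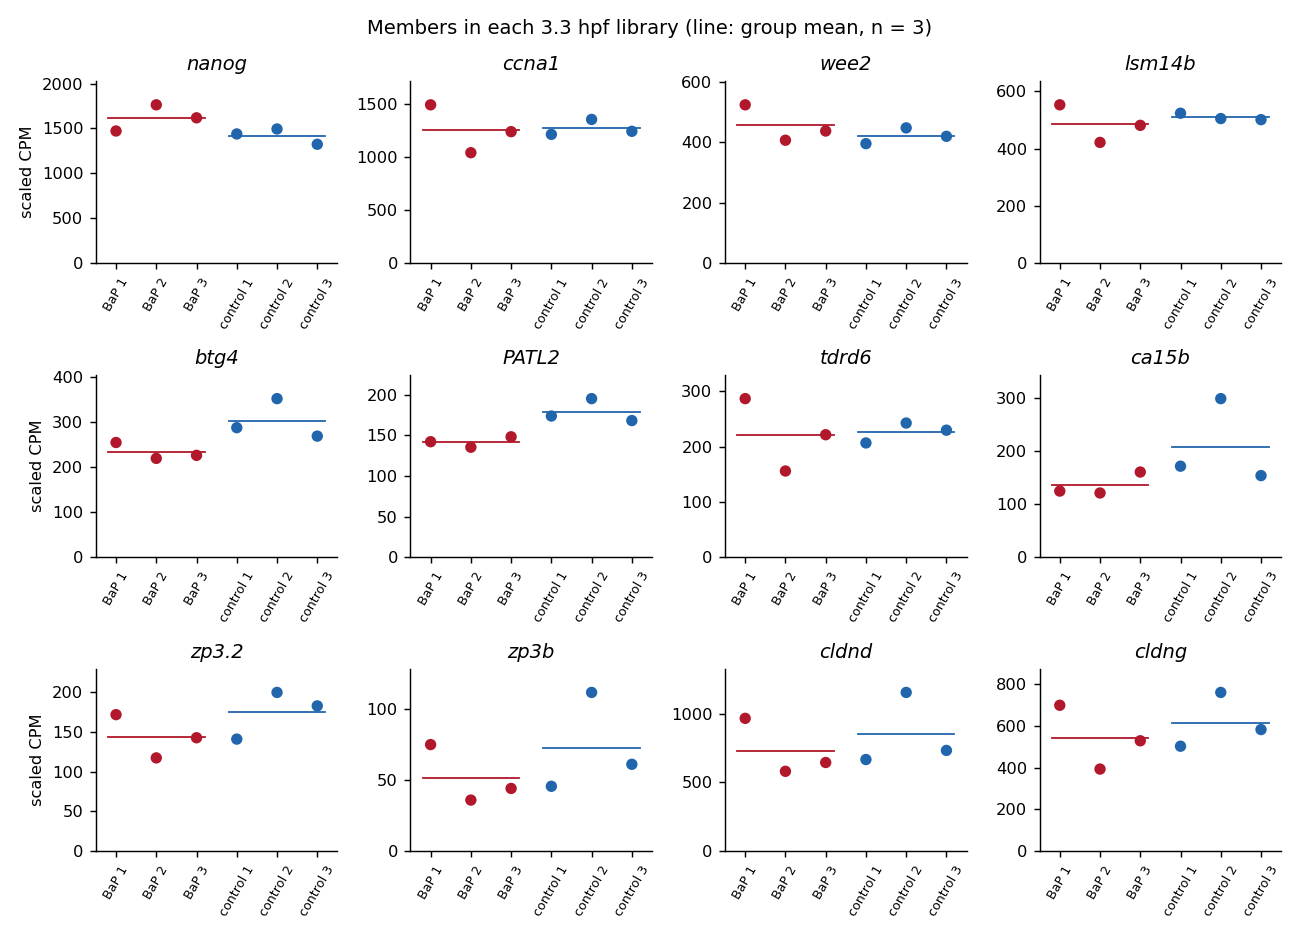
Scaled CPM (vertical axis, from 0) of 12 members in each 3.3 hpf library, BaP in red and control in blue, with a line at each group mean (n = 3). All BaP points of btg4 and PATL2 lie below the control points. Both genes peak in control replicate 2, as do ca15b, zp3.2, zp3b, cldnd and cldng.

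Egg coat genes, which encode the zona pellucida glycoproteins of the chorion, gave 10 members. Of these zp3.2 stood at 172, 117 and 143 CPM in BaP embryos and 141, 199.8 and 183 CPM in controls. The entry zp2 stood at 106, 95.8 and 70.05 CPM in BaP embryos and 114, 126 and 88.6 CPM in controls. The widest was zp3b, at 75.1, 36.0 and 44.2 CPM in BaP embryos and 45.7, 112 and 61.2 CPM in controls. In 5 of the 10 the highest library was control replicate 2, and in 7 of the 10 the lowest was BaP replicate 2. The 7 members named zp had control means from 39.4 CPM (zp3c) to 175 CPM (zp3.2) and coefficients of variation from 0.193 (zp3.2) to 0.449 (zp3b). Reads could be split between related copies such as zp2.3 and zp2.5, which are neighbours, and how alike their sequences are was not measured. The tight junction genes cldnd and cldng peaked in the same control library, cldnd at 967, 581 and 645 CPM in BaP embryos and 667, 1156 and 733 CPM in controls. For cldng the values were 699, 393 and 529 CPM in BaP embryos and 503, 761 and 583 CPM in controls.

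Of the 18 gene lists used, 9 held at least 1 member and 9 held none. Over all 14236 genes listed at 3.3 hpf, 150 were members and 12800 were listed at both ages. Counts near those shares, as for zinc finger genes below, set no list apart. By symbol, 16 egg coat genes were listed at 3.3 hpf, of which 10 were members and 2 were listed at 96 hpf as well. Among 28 genes of germ plasm and germ cells 10 were members and 12 were listed at both ages, and the selection had left out 4 more that would have ranked among the 150 (h1m, buc, tdrd7 and dazl). For control of stored messages 7 of 38 were members and 31 were listed at both ages, and for meiosis and the cleavage cell cycle 5 of 54 and 45. Nuclear transport gave 1 member of 39 listed genes (KPNA7), ubiquitin ligases 2 of 313 (FBXO43 and btr16, a tripartite motif gene), and claudins and other adhesion genes 2 of 64. The gene btr16 stood at 31.6, 30.9 and 58.8 CPM in BaP embryos and 54.7, 57.9 and 50.7 CPM in controls. Zinc finger genes gave 0 of 176, with 162 listed at both ages. Oocyte chromatin gave 2 of 23 (slbp2 and suv39h1a), and h1m, also on that list, was left out by the selection. The member NPM2 (1 of 2), a nucleoplasmin gene, was not matched to that list by symbol. Another nucleoplasmin entry, npm2a, was on the list and had no entry at 96 hpf, but was not a member. Activators of the zygotic genome gave 1 of 14 (nanog). None was in the lists of oocyte transcription and growth factors, maternal axis determinants, lectins and proteases, immune receptors, lipid handling, early zygotic, enveloping layer or larval tissue genes. For oocyte transcription and growth factors this was set by the selection, since bmp15 and gdf9 are on that list and would have ranked among the 150. These lists were written with earlier results of these data known, and no difference between them was tested.

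For 15 members a relative with a housekeeping or somatic name was looked up, chosen after the members were known. All 15 relatives were listed at both ages, as were 12800 of all 14236 genes listed at 3.3 hpf. The count of relatives thus says little by itself. The helicase gene mcm6l, part of a zebrafish pair in which both genes encode replication licensing proteins, stood at 182, 273 and 246 CPM in BaP embryos and 186, 213 and 302 CPM in controls and had no entry at 96 hpf. Its relative mcm6 stood at 0.35, 8.98 and 1.03 CPM in BaP embryos and 1.58, 0.11 and 0.33 CPM in controls at 3.3 hpf, and at 62.7 and 76.5 CPM in BaP larvae and 75.9 and 99.6 CPM in control larvae. Of this pair mcm6 alone was listed in larvae, and at 3.3 hpf it was under 2 CPM in 5 of the 6 libraries. The gene mcm3l stood at 142 ± 18.6 CPM in BaP and 177 ± 21.3 CPM in control embryos (SD, n = 3 each). Its relative mcm3 stood at 2.15, 20.6 and 44.3 CPM in BaP and 2.71, 2.96 and 5.93 CPM in control embryos, so the groups overlapped. In larvae mcm3 stood at 10.5 and 17.2 CPM with BaP and 26.6 and 25.2 CPM in controls. For other pairs both genes were well represented at 3.3 hpf. The cyclin gene ccna2, the relative of ccna1, averaged 788 ± 43.6 CPM in BaP and 700.3 ± 25.2 CPM in control embryos (SD, n = 3 each), and stood at 10.5 and 14.0 CPM in BaP larvae and 17.4 and 13.8 CPM in control larvae. Further entries, MCM3 (2 of 2) and CCNA2 (2 of 2), were also listed at both ages and are not among these pairs. Tables of the ages were scaled separately, so the levels given here stand side by side and were not tested.

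A second annotation listed few of the members in larvae. Of the 150 symbols, 84 were listed by RefSeq at 3.3 hpf, and 3 of these 84 were listed at 96 hpf. One more, si:dkeyp-93d12.1, was listed at 96 hpf alone, at 1.43 and 0.593 CPM in BaP larvae and 1.62 and 1.97 CPM in control larvae. Among genes listed at both ages by Ensembl and in the same CPM range, 3780 of 3789 (99.8%) symbols in the RefSeq table at 3.3 hpf were also in that at 96 hpf. These 4 were at 0.329 to 2.49 CPM in the larval libraries. The gene mcm3l stood there at 0.675 and 0.988 CPM in BaP larvae and 1.17 and 1.32 CPM in control larvae. The mitochondrial iron importer gene slc25a37 stood at 0.825 and 0.395 CPM in BaP larvae and 1.53 and 2.49 CPM in control larvae, and ormdl3, a regulator of sphingolipid synthesis, at 1.0502 and 0.329 CPM in BaP larvae and 0.81 and 1.39 CPM in control larvae. When synonyms were matched as well, ENSDARG00000094616 (zgc:113984) was also listed at 96 hpf, at 7.95 and 3.52 CPM in BaP larvae and 5.58 and 4.17 CPM in control larvae. Its RefSeq level at 3.3 hpf was 1.36 to 3.02 CPM in BaP and 1.53 to 3.41 CPM in control embryos, against 28.8 to 54.1 CPM in BaP and 40.8 to 48.7 CPM in control embryos for the Ensembl entry, so it is uncertain that both entries count the same transcript. Matching by transcript accession gave 78 members at 3.3 hpf and 3 at 96 hpf (mcm3l, slc25a37 and ormdl3). No transcript of any member was in the Ensembl transcript table of 96 hpf. That table, like the gene table, held only entries above 1 CPM in at least 2 libraries. A gene without an entry could hardly have a listed transcript, so this is no further check. The RefSeq and Ensembl tables come from the same libraries, so matching by RefSeq checks the annotation and not the animals. The same filter held for RefSeq genes at 96 hpf, and both sets were chosen by their Ensembl entry at that age. The contrast of 3 of 84 with 99.8% was thus largely set by the selection.

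Some members were neighbours in the genome. Of 117 members placed in the gene order of RefSeq assembly GRCz12tu, 23 (19.7%) had another member within 5 protein-coding genes, in 8 clusters. Among 117 genes listed at both ages and nearest to the members in control CPM the count was 4 (3.42%), and among the 117 most abundant genes listed at both ages it was 2 (1.71%). The largest cluster held 6 members, zgc:171977, zgc:152652, si:ch211-146l10.7, zgc:171750, si:ch211-146l10.5 and zgc:173856. The next held 5, si:ch211-145c1.1, si:dkey-90l23.1 and 3 entries known by Ensembl IDs. The egg coat genes zp2.3 and zp2.5 and the thioesterase genes ppt2a.3 and ppt2a.4 formed pairs. Tandem copies can share reads, so the level of a single copy in such a cluster is uncertain. Within the cluster of 6 the coefficient of variation ran from 0.142 to 0.588.

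Between libraries, zgc:113886, CR388052.2 and CU694951.2 varied more than all other members. Their coefficients of variation were over 1, and the next highest was 0.588 (zgc:173856). The gene zgc:113886 stood at 11.21, 491 and 92.1 CPM in BaP embryos and 261, 3.50 and 47.3 CPM in controls. CR388052.2 stood at 2.32, 153 and 51.3 CPM in BaP embryos and 137, 0.254 and 27.5 CPM in controls, and CU694951.2 at 4.58, 177 and 34.2 CPM in BaP embryos and 101, 1.18 and 12.2 CPM in controls. Each was highest in BaP replicate 2, then in control replicate 1, and lowest in control replicate 2, and within both groups the libraries ranged over at least an order of magnitude. BaP replicate 2 and control replicate 1 were also the libraries with the highest early zygotic sums, at 1880 and 866 CPM. Control replicate 2 had the lowest, at 300 CPM. For the early zygotic list the order did not hold in full. In all 3 members BaP replicate 3 lay above BaP replicate 1, but its early zygotic sum was lower, at 345 against 370 CPM. The 5 listed enveloping layer genes summed to 9.20, 361 and 23.4 CPM in BaP and 60.1, 8.86 and 13.3 CPM in control replicates 1, 2 and 3. These sums ranked the libraries in the same order as each of the 3 members did. The gene cldne was on both lists. The part of early zygotic or enveloping layer RNA in the values of the 3 members was not tested. Outside the 150 and also not listed at 96 hpf, CU694951.3 stood at 1.93, 81.3 and 24.1 CPM in BaP embryos and 80.4, 0.618 and 8.90 CPM in controls. CU694951.1, also outside the 150, stood at 1.34, 38.4 and 15.3 CPM in BaP embryos and 48.6, 0.257 and 7.61 CPM in controls, with control replicate 1 its highest library.

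**Figure D2:**
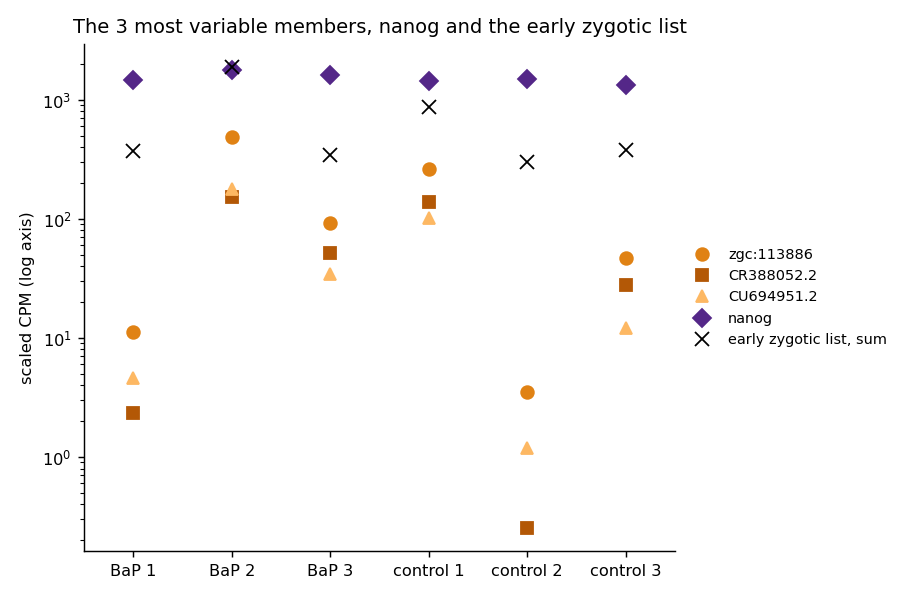
Scaled CPM on a log axis of the 3 most variable members, of nanog and of the summed early zygotic list (29 listed genes) in each 3.3 hpf library. The 3 members are highest in BaP replicate 2 and control replicate 1 and lowest in control replicate 2, while nanog stays between 1325 and 1763 CPM.

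Within 2-fold over the 6 libraries lay 110 of the 150 members (73.3%), against 93.5% of the 5735 genes listed at both ages in the same CPM range. The highest library was under 1.5 times the lowest for 52 members, from 1.5 to under 2 times for 58, from 2 to under 3 times for 31 and 3 times or more for 9. At the low end with vrtn were si:dkeyp-114g9.1 (coefficient 0.0565) and 42sp43 (0.0608). The median coefficient of variation was 0.19, against 0.106 for those 5735 genes. At 100 CPM or more it was 0.165 for 56 members and 0.0904 for 2909 such genes, and under 100 CPM it was 0.22 for 94 members and 0.13 for 2826. The difference between the sets is a description, since genes are not replicates. Within groups the members' median coefficient was 0.197 among BaP and 0.131 among control libraries. The order was the same in the 5735 genes (0.105 and 0.0807) and in all genes listed at 3.3 hpf (0.185 and 0.137).

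**Figure D3:**
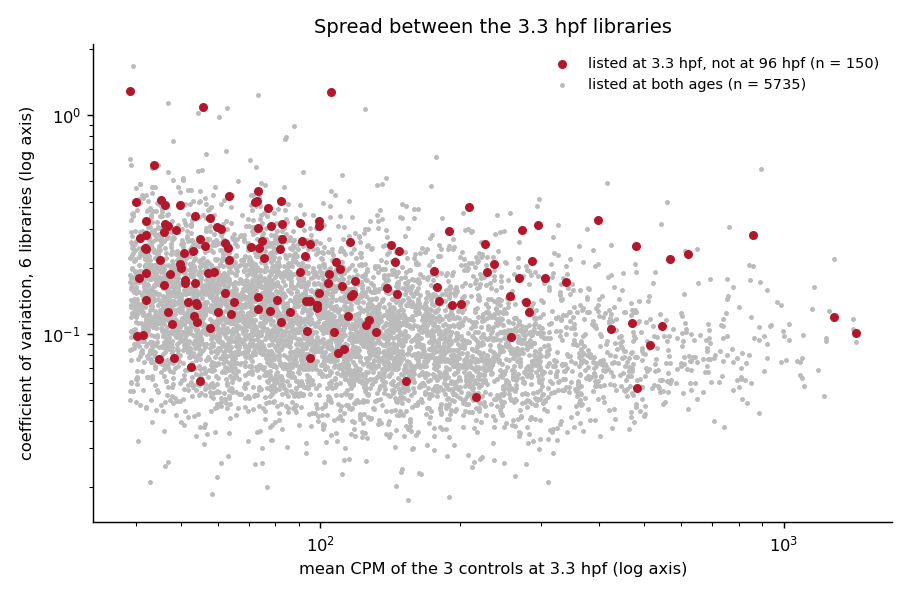
Coefficient of variation over the 6 libraries at 3.3 hpf against mean control CPM, both on log axes, for the 150 members (red) and 5735 genes listed at both ages in the same range (grey). The members lie higher on average (median 0.19 against 0.106), and 3 of them lie above 1.

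The spread was shared by many members. BaP replicate 2 was the lowest library for 73 of the 150 and BaP replicate 3 for 31, while control replicate 2 was the highest for 52 and BaP replicate 1 for 40. Set against each gene's own mean log2 level, the median member lay at 0.09, -0.21 and -0.10 in BaP replicates 1, 2 and 3 and at 0.01, 0.14 and 0.03 in control replicates 1, 2 and 3. The groups overlapped, since BaP replicate 1 lay above control replicates 1 and 3. Egg coat genes had the widest medians, at 0.24, -0.44 and -0.32 in BaP libraries and -0.09, 0.35 and 0.14 in controls. RNA storage genes were narrower, at 0.01, -0.19 and -0.10 in BaP libraries and 0.11, 0.05 and 0.03 in controls. The library where the median member was lowest, BaP replicate 2, had the highest early zygotic sum (1880 CPM). Where the median member was highest, in control replicate 2, that sum was lowest (300 CPM). But control replicate 1, with 866 CPM, lay in the middle, and the part of early zygotic RNA in this order was not tested.

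**Figure D4:**
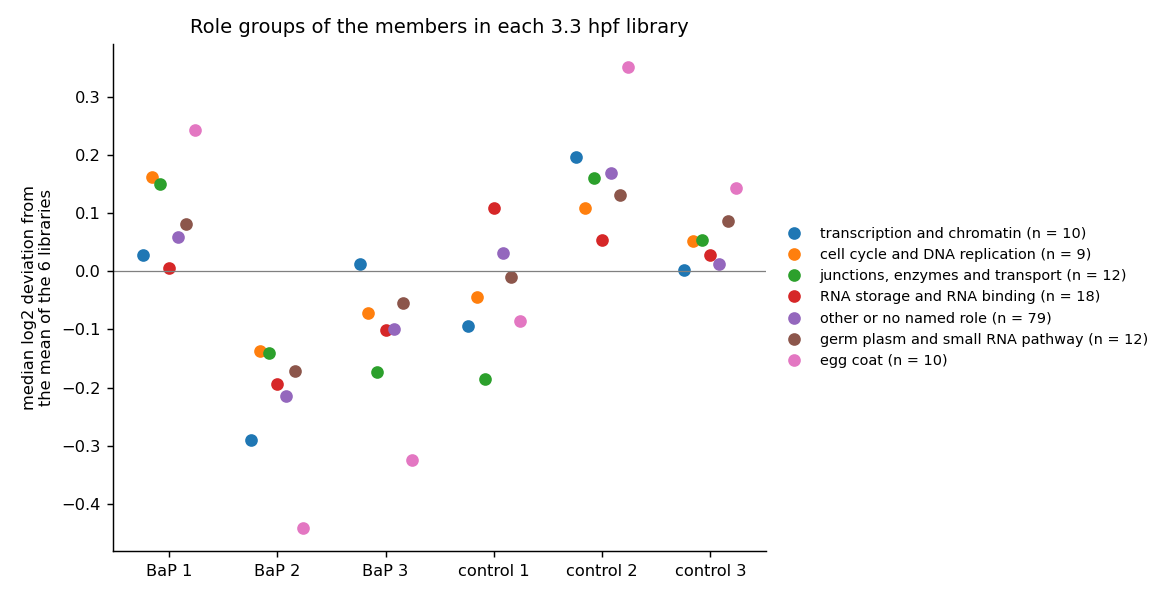
Median difference (log2) of each role group from its genes' mean level at 3.3 hpf, by library, with the number of members in the legend. In BaP replicate 2 all 7 groups lie below 0, in control replicate 2 all 7 lie above it, and egg coat genes range from -0.44 to 0.35.

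The exposure comparison asked whether these transcripts differed between BaP and control embryos at 3.3 hpf, and no member passed the test. In limma on log2(CPM + 0.5) over all 14236 genes, 0 genes (0.0%) had a Benjamini-Hochberg adjusted p under 0.05, and the smallest adjusted p was 0.908. At an unadjusted p under 0.05, 12 of 150 members (8.0%) were lower and 3 (2.0%) higher in BaP embryos, against 2.42% and 2.4% of all genes. Groups did not overlap for 12 members lower and 3 higher in BaP embryos, against 5.74% and 5.62% of all genes. The ranking used the control libraries, which favours genes that were high in controls by chance, and ranking by the BaP libraries gave 10 lower and 4 higher at an unadjusted p under 0.05. All BaP libraries were deeper than all controls (20.6 to 22.2 against 17.4 to 18.3 M reads), and the part of depth was not tested. The labels do not say that libraries came from separate clutches, so the spread between them may be technical.

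The 5 members with the smallest p among those lower in BaP embryos were si:ch1073-263o8.2, zgc:165539, PATL2, NPM2 (1 of 2) and si:ch73-90k17.1. The first stood at 55.4, 45.8 and 69.2 CPM in BaP embryos against 96.8, 95.1 and 103 CPM in controls, with a log2 difference of -0.81 and a standard error of 0.16 (limma adjusted p = 0.908, all 3 BaP libraries lower). It has no named role. NPM2 (1 of 2), a nucleoplasmin gene whose product stores and unloads histones in the egg, stood at 45.4, 36.7 and 45.4 CPM in BaP embryos against 73.4, 56.0 and 58.6 CPM in controls (log2 -0.55). The log2 difference was -0.73 for zgc:165539, -0.40 for si:ch73-90k17.1 and -0.33 for PATL2. Outside the 5, btg4 had a log2 difference of -0.37. The piRNA pathway gene fkbp6, also named after its values were seen, stood at 61.0, 53.5 and 34.0 CPM in BaP embryos against 69.4, 62.9 and 77.3 CPM in controls (log2 -0.53).

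Higher in BaP embryos with the smallest p were zgc:66483, ino80da, ATXN1L, nanog and TGIF2. The gene zgc:66483 stood at 115, 149.6 and 109.9 CPM in BaP embryos against 90.8, 82.0 and 72.1 CPM in controls, with a log2 difference of 0.60 and a standard error of 0.15 (limma adjusted p = 0.908, all 3 BaP libraries higher). The chromatin remodeller subunit gene ino80da stood at 56.3, 62.1 and 85.3 CPM in BaP embryos against 48.9, 49.2 and 52.3 CPM in controls (log2 0.41). The log2 difference was 0.42 for ATXN1L, 0.25 for TGIF2, a repressor of TGF-beta signalling, and 0.19 for nanog. All of these log2 differences, in both directions, kept their sign in each alternative that gave them a value, and none passed the adjusted threshold in any (limma adjusted p 0.58 to 0.999). Their sizes moved more. In the RefSeq table, which held zgc:66483, nanog, zgc:165539, btg4 and fkbp6 of these, zgc:66483 had 0.32 and fkbp6 -0.22. Without BaP replicate 3, fkbp6 had -0.28 and ino80da 0.24. Without BaP replicate 2, ATXN1L had 0.27 and nanog 0.12, and without control replicate 2, btg4 had -0.24. Without control replicate 1 and BaP replicate 2 together, NPM2 (1 of 2) had -0.33.

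More members had a fitted difference below 0 than above it. The fitted log2 difference was below 0 for 112 of the 150 (74.7%), against 50.9% of all genes and 48.1% of the 5735 genes listed at both ages in the same CPM range. The median was -0.14 for members, -0.01 for all genes and 0.01 for those 5735. Over the 29 early zygotic genes it was 0.62, with 6 below control, and over the 5 enveloping layer genes 1.14, with 0 below control. No gene of either list passed the limma test. Both lists had their highest sum in BaP replicate 2, and their sums overlapped between the groups. The early zygotic sum was 370, 1880 and 345 CPM in BaP and 866, 300 and 380 CPM in control replicates 1 to 3. The enveloping layer sum was 9.20, 361 and 23.4 CPM in BaP and 60.1, 8.86 and 13.3 CPM in control replicates 1 to 3. The part of early zygotic RNA in the members' values was not tested. Ranking the same candidates by the 3 BaP libraries, which favours the opposite direction, kept 138 of the 150 and left 100 of 150 below control with a median of -0.11. The median was -0.26 for egg coat genes (8 of 10 below control), -0.21 for junction, enzyme and transport genes (8 of 12), -0.14 for germ plasm genes (11 of 12) and -0.10 for RNA storage genes (13 of 18). It was -0.02 for transcription and chromatin genes (5 of 10) and -0.01 for cell cycle genes (5 of 9). Single libraries set the size of the shift: the members' median was -0.22 without BaP replicate 1, -0.09 without BaP replicate 2 and -0.08 without control replicate 2. The egg coat median was -0.41 without BaP replicate 1, -0.08 without BaP replicate 2 and -0.12 without control replicate 2, so the order of the groups rests on single libraries. For junction, enzyme and transport genes it was -0.32 without BaP replicate 1, -0.04 without BaP replicate 2, -0.12 without BaP replicate 3 and -0.03 without control replicate 2. Germ plasm genes had -0.22 without BaP replicate 1, -0.08 without BaP replicate 2 and -0.08 without control replicate 2. RNA storage genes had -0.17 without BaP replicate 1, -0.06 without BaP replicate 2 and -0.06 without control replicate 1. Transcription and chromatin genes ran from -0.20 without control replicate 1 to 0.15 without control replicate 2, and cell cycle genes from -0.14 without control replicate 1 to 0.06 without BaP replicate 2, so neither group had a steady direction. The members move together within a library, so their number adds little to 3 libraries a group.

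**Figure D5:**
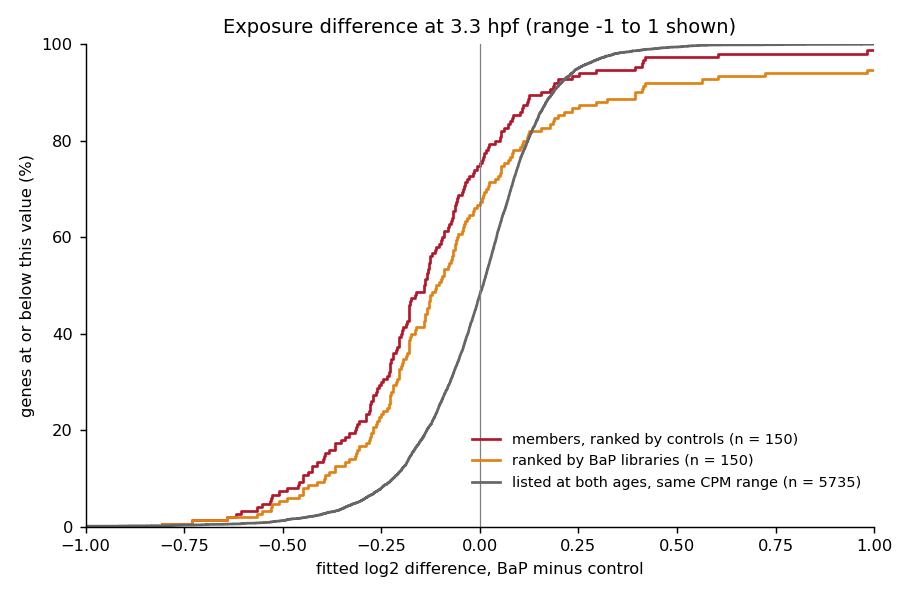
Cumulative share of genes (vertical axis, %) against the fitted log2 difference, BaP minus control, for members ranked by controls, for the 150 candidates ranked by BaP libraries and for 5735 genes listed at both ages. Below 0 lie 74.7%, 66.7% and 48.1% of the 3 sets.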

How the data were processed

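Pooled whole zebrafish were sequenced from TruSeq libraries, per the labels' protocols. TopHat, Partek, edgeR and the build Zv9 are named in the submitters' processing notes, without versions or roles. Files named as counts hold CPM: every column deposited by the authors has the same total, with no length correction; the annotation is Ensembl release 70 or RefSeq, per the file headers. Between 76.9% and 82.6% of values from 0.3 to 3 CPM were whole multiples of 1 read within 0.05 reads, so whole reads were not recovered and no count test was run. At 96 hpf the depth was 15.6 to 17.7 M reads in BaP and 13.1 to 16.3 M reads in control libraries. CPM were rescaled by a trimmed mean of log ratios (30% and 5% trimmed, factors 0.972 to 1.03) and tested with limma 3.58.1 in R 4.3.3 on log2(CPM + 0.5), group as the only term, trend on expression, all listed genes. A fold on that scale understates the change of low genes. The limma step was tested on simulated data. Columns of the RefSeq gene table at 3.3 hpf carry letters and were used by group only. Named genes were the 10 with the most control reads and a gene symbol, the 5 smallest p in each direction, the 3 least and 3 most variable, the 4 at the cutoff the first 2 of each list and symbol families of at least 3; others named were chosen after their values were seen. Members, lists and tests were chosen with earlier results of these data known. Alternatives were other scaling, pseudocounts, filters, spread models, a replicate block, the RefSeq table, other rankings and left-out libraries.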

Additional observations from a re-analysis of the deposited data

How the results depend on the processing

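The share of members below control, their median log2 difference and the count of 0 called members kept their direction or side under all alternatives run. The share ran from 62.0% to 82.0% and the median from -0.22 to -0.08 with 1 library left out. Across all genes 0 to 1 genes were called with 1 library left out; the 1 was CCBL2 (1 of 4), which is no member, without BaP replicate 2 (limma adjusted p = 0.0421), and the cause was not tested. Without BaP replicate 1, 1204 genes had an unadjusted p under 0.05 (686 with all libraries), and 27 members were lower and 6 higher. On CPM as deposited 79.3% of members lay below control. Without control replicate 1 and BaP replicate 2 together, chosen after seeing the data, 105 of 150 did, with a median of -0.11. Same-numbered libraries did not deviate together (correlations -0.44, -0.43 and -0.01). The highest correlation was 0.47, for BaP replicate 2 with control replicate 1. Deviations were taken from each group's own mean over 3 libraries, so these values depend on each other. Whether numbers pair the libraries was not tested. With a replicate block 0 genes were called (smallest limma adjusted p 0.985). The median coefficient of variation ran from 0.17 to 0.204 with 1 library left out. Matching by synonyms raised the members listed at 96 hpf under RefSeq to 5 from 4, the fifth being ENSDARG00000094616 at 7.95 and 3.52 CPM in BaP larvae and 5.58 and 4.17 CPM in control larvae.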

Other observations

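Below the 150 lay 1278 further genes listed at 3.3 hpf and not at 96 hpf. Their median coefficient of variation over the 6 libraries was 0.341, and 339 of them (26.5%) were over 0.5, against 4 of the 150 (2.67%). These genes lie below the 150 in control CPM, so the comparison is between unlike levels. Among genes listed at both ages in the members' range the median was also larger at lower CPM (0.0904 at 100 CPM or more, 0.13 under 100 CPM). Of the 1278, 660 (51.6%) had clone-type names. Their median log2 difference was 0.00, with 633 of 1278 below control, and their summed level was 7307, 10864 and 9258 CPM in BaP replicates 1, 2 and 3, against 9209, 7863 and 8264 CPM in control replicates 1, 2 and 3. The sum of the 150 was 22427, 19506 and 19749 CPM in BaP replicates 1, 2 and 3, against 20677, 23766 and 20802 CPM in control replicates 1, 2 and 3. So the library with the highest sum of the 1278 genes, BaP replicate 2, had the lowest sum of the 150. The median gene of the 1278 did not peak there. Set against each gene's own mean log2 level, it lay at -0.17, 0.05 and 0.14 in BaP replicates 1, 2 and 3. In control replicates 1, 2 and 3 it lay at 0.06, -0.05 and 0.06.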
